A study of Mus musculus with 6 samples.

Results

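Aminoacyl-tRNA synthetases join each amino acid to its transfer RNA (tRNA) and so supply the ribosome with charged tRNA. Mammals use one set of these enzymes in the cytosol and another, also encoded in the nucleus and mostly named with the suffix 2, in mitochondria. Several cytosolic synthetase genes are known targets of ATF4, the transcription factor of the integrated stress response, and some of the cytosolic enzymes are held in a multisynthetase complex. The genes described here are 36 synthetase genes, 20 cytosolic and 16 mitochondrial, chosen by symbol out of 23406 row names in the deposited expression files. Each was found by its symbol among the gene names of a row, and all 36 passed the filter on low values. For 5 of them (Aars, Hars, Qars, Tars2 and Vars2) the row also names 1 or 2 other genes, so the value is that of the whole row.

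The samples are mouse embryonic fibroblasts with OSKM, the factor set Oct4, Sox2, Klf4 and Myc that drives reprogramming towards pluripotent stem cells, collected on day 7, and their total RNA was sequenced after ribosomal RNA was removed. The groups differ in the alleles of Adar, which encodes the RNA-editing enzyme ADAR1, and in treatment. WT had both Adar alleles floxed (Fl/Fl) and received vehicle (n = 2), and KO was Fl/Fl treated with 4-hydroxytamoxifen (4OHT, which is used to switch on Cre recombinase and so remove floxed sequence; n = 2). HET was Fl/E861A with vehicle (n = 1) and MUT was Fl/E861A with 4OHT (n = 1); E861A is a change in ADAR1 known to abolish its editing. All cells thus carried at least 1 floxed Adar allele. Cells given 4OHT without a floxed allele were not analysed here, and the effects of the drug, of Cre and of Adar loss cannot be told apart. By design MUT also loses its floxed allele, so gene dose and editing cannot be told apart either. Nothing in the labels says whether replicate libraries are separate cultures, and the p-values therefore cover spread among libraries that may be technical.

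The files give FPKM, fragment counts scaled by transcript length and library size, but no counts, and an estimate from the smallest steps gave 15500000 to 20400000 fragments per library. The level of Adar was 19.6 and 19.5 FPKM in WT, 34.2 and 31.3 in KO, 16.96 in HET and 32.97 in MUT, so the whole-gene value was higher with 4OHT; the labels do not name the deleted exons, and this value does not check the deletion. Of 12266 genes tested, 3617 were higher and 3463 lower in KO (limma, adjusted p under 0.05), so any gene list had to be read against a large background. Proliferation markers (6 of 6), epithelial markers (4 of 4) and pluripotency markers (8 of 8) fell in KO, and 5 of 6 fibroblast markers fell. Summed fibroblast markers were 2275 and 1982 FPKM in WT, 605 and 499 in KO, 2536 in HET and 1344 in MUT, and summed proliferation markers 256 and 278 FPKM in WT, 52.4 and 48.3 in KO, 373 in HET and 98.04 in MUT. Summed pluripotency markers were 599 and 478 FPKM in WT, 21.5 and 7.87 in KO, 619 in HET and 42.5 in MUT. The part of these shifts in the synthetase results was not tested, and in bulk RNA fewer cells of a type and less RNA per cell cannot be told apart. The macrophage genes Ptprc, Adgre1 and Csf1r lay at 0.862 FPKM or less in all 6 libraries, and with Lyz2 summed to 9.14 and 7.06 FPKM in WT, 6.29 and 8.03 in KO, 20.02 in HET and 16.4 in MUT (Cd68 is on a row with 2 other genes). Of the tested neural markers 3 of 3 fell, of the adipocyte markers 1 of 2, and of the endothelial markers 3 of 4, with 1 higher. Of 2 tested muscle markers Acta1 rose, at 5.62 and 4.59 FPKM in WT, 8.43 and 11.3 in KO, 1.74 in HET and 4.75 in MUT, while the defining muscle gene Myod1 was listed at 0 in 5 of the 6 libraries. Summed neural markers were 144 and 158 FPKM in WT, 41.7 and 55.7 in KO, 175 in HET and 48.7 in MUT, summed muscle markers 7.83 and 6.84 FPKM in WT, 10.5 and 13.2 in KO, 3.13 in HET and 6.55 in MUT, and summed adipocyte markers 56.2 and 51.8 FPKM in WT, 28.4 and 26.9 in KO, 28.4 in HET and 14.7 in MUT. The part of these lists was not tested either.

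In KO most cytosolic synthetase genes rose, and most mitochondrial ones were not called in either direction. Of 20 cytosolic genes, 12 rose, 2 fell and 6 were not called, against 29.5% higher and 28.2% lower among all genes tested. Of 16 mitochondrial genes, 1 rose, 3 fell and 12 were not called. On rows of their own, 11 of 17 cytosolic genes rose and 1 fell, and 1 of 14 mitochondrial genes rose and 2 fell. The median difference, on the log2(FPKM + 1) scale used for all differences below, was 0.76 for the cytosolic and 0.02 for the mitochondrial genes, beside 0.02 over all genes tested. The cytosolic differences left a gap: the 12 that rose had differences of 0.68 to 1.63, and the other 8 lay between -0.35 and 0.20. As ratios of mean FPKM the 12 rises ran from 1.61-fold to 3.16-fold. The call of all 12, and of the 1 mitochondrial gene that rose, held in each of 12 other settings tried.

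**Figure D1:**
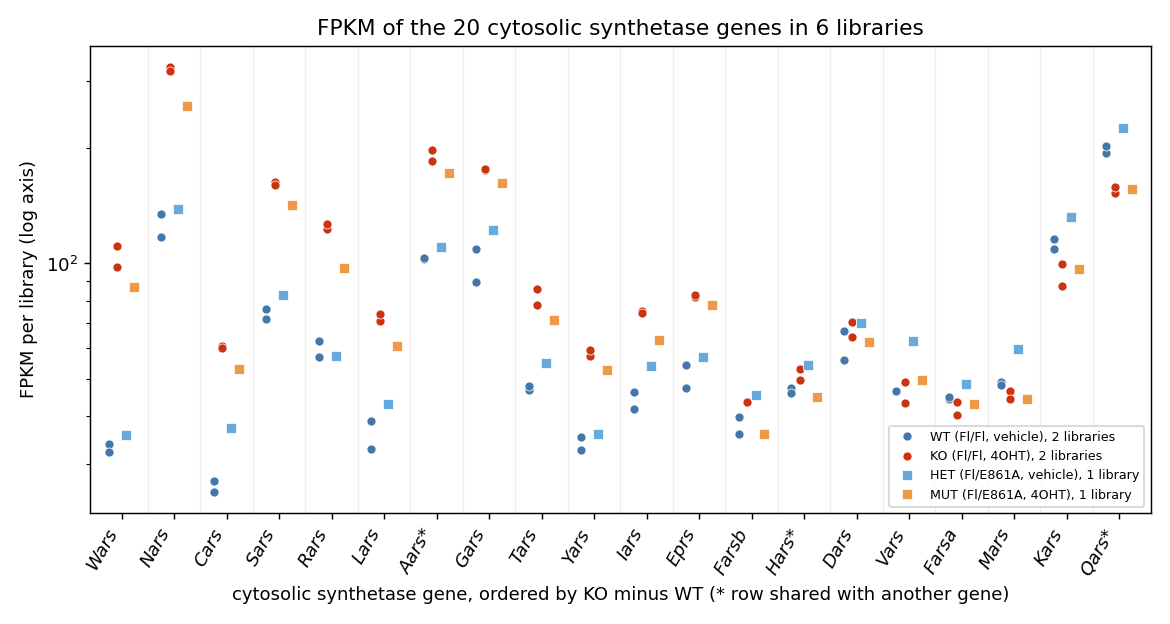
FPKM (log axis) of each of the 20 cytosolic synthetase genes in the 6 libraries, 1 point per library, ordered from the largest to the smallest KO minus WT difference; a star marks a row shared with another gene. From Wars at the left to Eprs the KO and MUT points lie above all WT and HET points, and from Farsb on they do not.

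Wars, the tryptophan enzyme, which is also known to be induced by interferon, had the largest rise. It lay at 33.7 and 32.3 FPKM in WT, 111 and 97.9 in KO, 35.6 in HET and 86.9 in MUT. The 3 libraries with 4OHT, at 86.9 FPKM or more, stood well clear of the vehicle libraries, at 35.6 or less. Mean FPKM went from 33.00 ± 1.02 in WT to 104 ± 9.29 in KO (SD, n = 2 each), a ratio of 3.16, and the log2 difference was 1.63 ± 0.10 (SE, n = 2 against 2, limma adjusted p = 4.41e-07). The gene lies at chr12:108860030-108894174 on GRCm38.

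Nars, the asparagine enzyme, was the highest of the cytosolic genes on a row of their own. It lies at chr18:64499647-64516652, and its values were 117 and 135 FPKM in WT, 325 and 318 in KO, 139 in HET and 258 in MUT. Again no vehicle library reached the lowest 4OHT library, and the KO difference was 1.35 ± 0.10 (SE, n = 2 against 2, limma adjusted p = 1.93e-06). Cars, the cysteine enzyme (chr7:143557230-143600090), stood at 25.4 and 27.00 FPKM in WT, 60.9 and 60.2 in KO, 37.2 in HET and 53.01 in MUT, with a difference of 1.18 ± 0.09 (SE, n = 2 against 2, limma adjusted p = 2.64e-06). For Cars, HET lay above both WT libraries and MUT below both KO libraries. The gap between HET and MUT was thus narrower than that between WT and KO.

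Sars, the serine enzyme (chr3:108424865-108445209), had 76.1 and 71.5 FPKM in WT, 163 and 161 in KO, 82.5 in HET and 142 in MUT. Its 4OHT and vehicle libraries did not overlap, and KO exceeded WT by 1.12 ± 0.09 (SE, n = 2 against 2, limma adjusted p = 3.55e-06). Aars, the alanine enzyme, is listed on a row with the exosome gene Exosc6, whose exons overlap its exons on the same strand. That row had 103 and 103 FPKM in WT, 197 and 185 in KO, 111 in HET and 172 in MUT, with a KO difference of 0.88 ± 0.09 (SE, n = 2 against 2, limma adjusted p = 2.14e-05). Gars, whose gene encodes the glycine enzyme of both compartments, had 89.6 and 109 FPKM in WT, 175 and 176 in KO, 123 in HET and 162 in MUT. All 3 of these rows separated the treated from the vehicle libraries, and the Gars difference was 0.82 ± 0.11 (SE, n = 2 against 2, limma adjusted p = 1.17e-04).

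Tars and Yars, the threonine and tyrosine enzymes, rose by similar amounts. Tars had 46.9 and 47.9 FPKM in WT, 78.1 and 85.9 in KO, 54.9 in HET and 71.1 in MUT, a difference of 0.78 ± 0.10 (SE, n = 2 against 2, limma adjusted p = 6.44e-05). For Yars the levels were 32.7 and 35.3 FPKM in WT, 57.5 and 59.5 in KO, 35.8 in HET and 52.6 in MUT, a difference of 0.77 ± 0.10 (SE, n = 2 against 2, limma adjusted p = 6.69e-05). Neither gene had a vehicle library above a 4OHT library.

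Among the 8 enzymes of the multisynthetase complex, 4 rose, 2 fell and 2 were not called, against 29.5% higher and 28.2% lower among all genes tested. The arginine, leucine and isoleucine enzymes and Eprs, whose protein joins both glutamate and proline to their tRNAs, made up the rises. Rars had 56.98 and 62.8 FPKM in WT, 123 and 127 in KO, 57.4 in HET and 97.2 in MUT, a KO difference of 1.05 ± 0.10 (SE, n = 2 against 2, limma adjusted p = 7.71e-06). Lars was at 32.7 and 38.9 FPKM in WT, 70.8 and 73.7 in KO, 43.03 in HET and 60.8 in MUT, with a difference of 0.998 ± 0.11 (SE, n = 2 against 2, limma adjusted p = 2.25e-05). The 2 WT libraries of Lars differed by 0.24 on the log2 scale, well under the KO difference. Iars, at 41.6 and 46.05 FPKM in WT, 75.1 and 74.5 in KO, 54.02 in HET and 63.1 in MUT, differed by 0.76 ± 0.10 (SE, n = 2 against 2, limma adjusted p = 7.85e-05). Eprs, at 47.4 and 54.2 FPKM in WT, 81.5 and 82.5 in KO, 57.04 in HET and 78.1 in MUT, had the smallest rise, 0.68 ± 0.10 (SE, n = 2 against 2, limma adjusted p = 2.17e-04). In all 4 the KO and MUT values lay above every vehicle value, although for Iars MUT exceeded HET by only 0.22.

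The other 4 enzymes of the complex went the other way or showed no call. Kars, whose gene encodes the lysine enzyme of both compartments and lies at chr8:111993443-112011323, had 109 and 116 FPKM in WT, 99.5 and 87.2 in KO, 132 in HET and 96.7 in MUT. Its difference of -0.27 ± 0.10 (SE, n = 2 against 2, limma adjusted p = 0.0455) passed the threshold narrowly, and the adjusted p rose above 0.05 without WT 1 (0.103), WT 2 (0.219) or KO 2 (0.22), with no filter on low values (0.103) and with no variance trend (0.0644). The row of Qars, the glutamine enzyme, also holds Impdh2 and Qrich1 and had 195 and 203 FPKM in WT, 152 and 159 in KO, 225 in HET and 156 in MUT, a difference of -0.35 ± 0.09 (SE, n = 2 against 2, limma adjusted p = 0.00863), with an adjusted p of 0.0805 without WT 2. In both genes every 4OHT library lay below every vehicle library. Dars, the aspartate enzyme, had 56.1 and 66.5 FPKM in WT, 64.2 and 70.3 in KO, 69.9 in HET and 62.5 in MUT, and the WT and KO ranges overlapped. Its difference was 0.14 ± 0.11 (SE, n = 2 against 2, limma adjusted p = 0.317). Mars, the methionine enzyme, had 48.9 and 48.1 FPKM in WT, 46.6 and 44.2 in KO, 59.9 in HET and 44.3 in MUT, a difference of -0.09 ± 0.09 (SE, n = 2 against 2, limma adjusted p = 0.415). Exons of Mars overlap those of the stress gene Ddit3 on the other strand by 68 bases, and Ddit3 went from 53.3 to 752 mean FPKM, so reads of the 2 genes could be mixed at that overlap if strand was not used.

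Outside the complex 8 of 12 cytosolic genes rose and none fell, beside 29.5% higher and 28.2% lower among all genes tested. The 4 not called were both subunits of the phenylalanine enzyme, Farsa and Farsb, and the histidine and valine enzymes. Farsa had 44.2 and 44.9 FPKM in WT, 43.6 and 40.2 in KO, 48.3 in HET and 43.1 in MUT, and Farsb 35.9 and 39.8 FPKM in WT, 43.6 and 43.6 in KO, 45.4 in HET and 35.99 in MUT. The KO difference was -0.09 ± 0.10 (SE, n = 2 against 2, limma adjusted p = 0.461) for Farsa and 0.20 ± 0.10 (SE, n = 2 against 2, limma adjusted p = 0.102) for Farsb. Neither passed the test, although both KO libraries of Farsb lay above both WT libraries, and every 4OHT library of Farsa lay below every vehicle library. The row of Hars, which also names Dnd1, had 47.2 and 45.9 FPKM in WT, 49.5 and 52.9 in KO, 54.3 in HET and 44.7 in MUT, a difference of 0.14 ± 0.09 (SE, n = 2 against 2, limma adjusted p = 0.245). Vars had 46.6 and 46.5 FPKM in WT, 48.96 and 43.2 in KO, 62.8 in HET and 49.8 in MUT, a difference of -0.02 ± 0.10 (SE, n = 2 against 2, limma adjusted p = 0.905). Its KO libraries lay on either side of the WT pair. By structural class, 6 of 9 class I and 5 of 10 class II enzymes rose, and 1 of each class fell. Eprs, which holds a domain of each class, rose as well. The classes were not compared by a test.

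The C/EBP-ATF composite element is the sequence through which ATF4 and its partners are known to act on amino acid response genes, and its core was looked for in promoters to set beside these rises. Promoter windows of 300 bases (250 before the transcription start and 50 after) were taken from RefSeq on GRCm38.p6, which held 13 of the cytosolic and 14 of the mitochondrial genes. Among the 12 genes that rose, 7 had a window, and 5 of those 7 (Aars, Gars, Iars, Tars and Yars) held the letters TGATGNAA on either strand (N is any base), while Eprs and Sars did not. None of the 6 other cytosolic genes with a window and none of the 14 mitochondrial genes held them. Over all 32851 windows the share was 3.97%. Stretches around the match are shown 5′ to 3′ on the strand of the gene, with the match in capitals; all but that of Yars read as the reverse complement. A match is a description of these letters and not evidence of a bound site.
Aars, upstream match (chr8:111033680-111033787, plus strand): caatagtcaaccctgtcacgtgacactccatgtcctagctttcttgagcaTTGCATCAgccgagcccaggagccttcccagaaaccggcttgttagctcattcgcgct
Aars, downstream match (chr8:111033801-111033866, plus strand): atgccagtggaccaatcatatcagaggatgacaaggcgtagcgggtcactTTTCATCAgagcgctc
Gars (chr6:55037921-55038025, plus strand): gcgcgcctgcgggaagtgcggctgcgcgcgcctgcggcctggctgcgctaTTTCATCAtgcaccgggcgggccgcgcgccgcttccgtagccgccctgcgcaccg
Iars (chr13:49682087-49682154, plus strand): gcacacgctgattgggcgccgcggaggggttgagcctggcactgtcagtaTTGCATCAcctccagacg
Tars (chr15:11399634-11399723, minus strand): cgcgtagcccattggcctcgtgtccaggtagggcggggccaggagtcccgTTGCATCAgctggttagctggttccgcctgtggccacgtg
Yars (chr4:129189856-129189927, plus strand): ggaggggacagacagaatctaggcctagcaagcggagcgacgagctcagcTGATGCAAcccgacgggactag

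The 2 matches in Aars begin at 112 bases before and at base 10 after the start. Those of Gars and Tars begin 30 and 15 bases before it, and those of Iars and Yars at bases 8 and 4 after it, so that all but 1 lie within 30 bases of the start. A core of the interferon-stimulated element, GAAA followed by any 2 bases and GAAA again on either strand, was in 3.44% of all windows and among the members only in that of Qars, whose row fell. The letters TTCNNNGAA, which STAT factors are known to bind and which read the same on both strands, were in 8.30% of all windows and in those of Aars, Kars and Nars2. No window was matched for Wars, Cars, Nars, Lars or Rars, so the 3 largest rises have no part in these counts.

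The mitochondrial enzymes serve translation of the few proteins encoded in mitochondrial DNA. Their genes had lower levels, with a median of 11.04 FPKM in WT against 47.9 for the cytosolic genes. Fars2, the mitochondrial phenylalanine enzyme, was the 1 gene that rose. It had 8.72 and 10.2 FPKM in WT, 16.3 and 16.6 in KO, 10.4 in HET and 15.2 in MUT, with no overlap between treated and vehicle libraries, and a difference of 0.74 ± 0.11 (SE, n = 2 against 2, limma adjusted p = 1.84e-04). Its exons overlap those of Lyrm4, at 8.18 and 7.05 FPKM in WT, 13.9 and 11.5 in KO, 9.15 in HET and 10.5 in MUT, and those of Nrn1, at 115 and 108 FPKM in WT, 44.4 and 47.3 in KO, 46.9 in HET and 35.6 in MUT, on the other strand. Lyrm4 was higher and Nrn1 lower in both KO libraries than in WT, and the part of their reads in the Fars2 value was not tested. The gene lies at chr13:36117412-36726280.

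**Figure D2:**
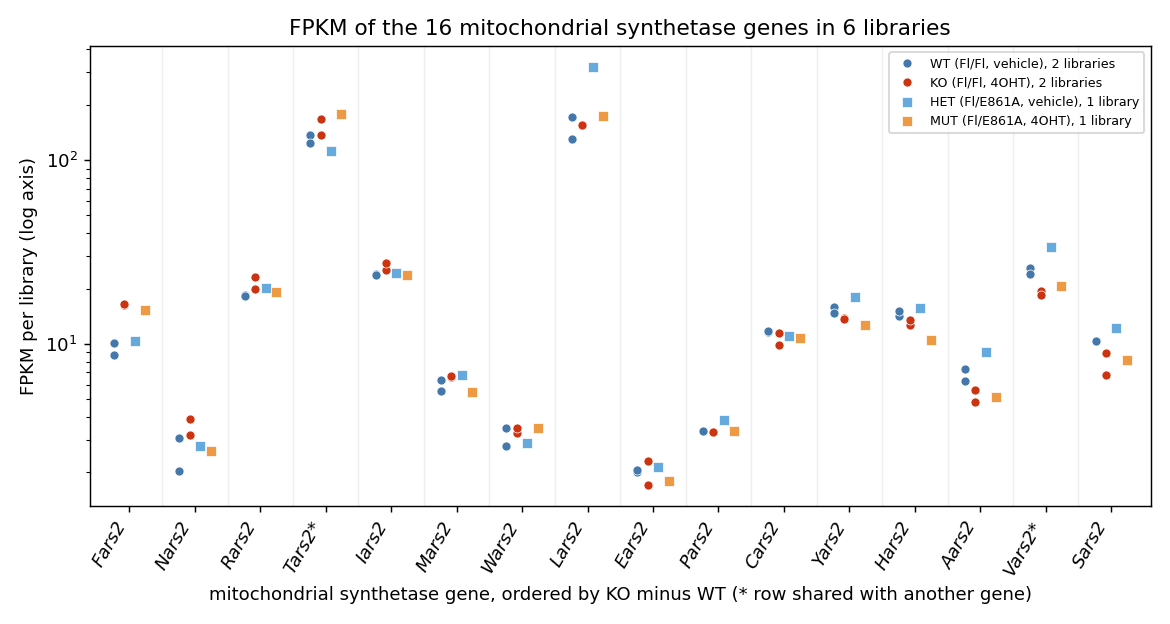
FPKM (log axis) of each of the 16 mitochondrial synthetase genes in the 6 libraries, 1 point per library, ordered by KO minus WT; a star marks a row shared with another gene. Fars2 at the left is the one gene called higher in KO, and Lars2 in HET, at 322 FPKM, stands above its other 5 libraries.

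Sars2, Aars2 and the row of Vars2 fell in KO, each by under 0.40 on the log2 scale. Sars2, for serine, had 10.4 and 10.4 FPKM in WT, 8.96 and 6.75 in KO, 12.2 in HET and 8.14 in MUT, a difference of -0.38 ± 0.13 (SE, n = 2 against 2, limma adjusted p = 0.0271). Aars2, for alanine, had 7.28 and 6.29 FPKM in WT, 5.603 and 4.83 in KO, 8.99 in HET and 5.13 in MUT, a difference of -0.32 ± 0.12 (SE, n = 2 against 2, limma adjusted p = 0.0374). For the row of Vars2 (valine), which also names the transcription factor subunit gene Gtf2h4, the levels were 25.96 and 23.9 FPKM in WT, 19.4 and 18.5 in KO, 33.5 in HET and 20.5 in MUT, a difference of -0.38 ± 0.10 (SE, n = 2 against 2, limma adjusted p = 0.00797). All 4OHT libraries lay below all vehicle libraries for these 3, yet each call was lost in other settings. For the Vars2 row the adjusted p was 0.0716 without WT 1. For Aars2 it was 0.223 without WT 1, 0.199 without KO 2, 0.126 with no filter and 0.143 with quantile normalization. For Sars2 it was 0.0983 without WT 1, 0.0957 without WT 2, 0.259 without KO 2 and 0.146 with no filter.

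Lars2, the leucine enzyme (chr9:123366927-123462666), was the highest mitochondrial synthetase gene in WT and did not follow treatment in the Fl/Fl cells. Its values were 171 and 130.2 FPKM in WT, 156 and 155 in KO, 322 in HET and 174 in MUT, so that the KO libraries lay between the 2 WT libraries and HET stood apart. The KO difference was 0.06 ± 0.13 (SE, n = 2 against 2, limma adjusted p = 0.711). Of its longest transcript, 3 stretches of 50 bases also occur in the antisense gene Gm15564. The ribosomal RNA row Rn45s had 328 and 235 FPKM in WT, 287 and 245 in KO, 331 in HET and 278 in MUT. The part of such reads, or of ribosomal RNA, in the Lars2 value was not tested. Tars2 shares its row with the matrix gene Ecm1, at 137 and 125 FPKM in WT, 167 and 137 in KO, 112 in HET and 179 in MUT, and its difference of 0.21 ± 0.12 (SE, n = 2 against 2, limma adjusted p = 0.139) was not called. One KO library of that row lay close to the higher WT library, and without KO 2 the row was called higher (adjusted p 0.00635). Iars2 had 23.96 and 23.7 FPKM in WT, 25.4 and 27.5 in KO, 24.4 in HET and 23.8 in MUT, a difference of 0.14 ± 0.10 (SE, n = 2 against 2, limma adjusted p = 0.225), and 2034 bases of its exons overlap Rab3gap2 on the other strand.

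Nars2, Rars2, Mars2 and Wars2 had differences above 0 without a call. Nars2 had 2.02 and 3.097 FPKM in WT, 3.18 and 3.93 in KO, 2.78 in HET and 2.61 in MUT, a difference of 0.37 ± 0.16 (SE, n = 2 against 2, limma adjusted p = 0.0697), and was low enough that its 2 WT libraries differed by 0.44. For Rars2 the levels were 18.4 and 18.1 FPKM in WT, 19.9 and 23.1 in KO, 20.2 in HET and 19.3 in MUT, a difference of 0.22 ± 0.11 (SE, n = 2 against 2, limma adjusted p = 0.0949). In Nars2 and Rars2 both KO libraries exceeded both WT libraries, but MUT lay below HET. Nars2 was called higher without WT 2 (adjusted p 0.012), without KO 1 (0.0114) and with quantile normalization (0.00658), and Rars2 without KO 1 (0.0331). Mars2 had 5.58 and 6.33 FPKM in WT, 6.62 and 6.66 in KO, 6.82 in HET and 5.48 in MUT, and Wars2 3.49 and 2.802 FPKM in WT, 3.26 and 3.49 in KO, 2.905 in HET and 3.48 in MUT, with differences of 0.14 and 0.08 (limma adjusted p = 0.302 and 0.600).

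The other 5 mitochondrial genes had differences below 0, again without a call. Ears2, whose glutamate enzyme also starts the route to glutaminyl-tRNA in mitochondria, was the lowest of all, with 2.001 and 2.05 FPKM in WT, 2.296 and 1.72 in KO, 2.15 in HET and 1.802 in MUT. Pars2 (proline) had 3.37 and 3.38 FPKM in WT, 3.302 and 3.33 in KO, 3.85 in HET and 3.35 in MUT, and Cars2 (cysteine) 11.6 and 11.8 FPKM in WT, 9.82 and 11.5 in KO, 11.1 in HET and 10.8 in MUT. Hars2 had 14.3 and 15.1 FPKM in WT, 12.6 and 13.5 in KO, 15.7 in HET and 10.5 in MUT, and Yars2 15.9 and 14.6 FPKM in WT, 13.9 and 13.6 in KO, 17.98 in HET and 12.7 in MUT. Their KO differences ran from -0.16 for Hars2 to -0.02 for Ears2, with limma adjusted p of 0.203 or more. For Hars2, Pars2 and Yars2 every 4OHT library lay below every vehicle library, by little in Pars2. On the other strand, exons of Naxd overlap those of Cars2 by 422 bases, and exons of Hars overlap those of Hars2 by 195. Naxd is listed under its earlier name, Carkd. It had 34.6 and 33.1 FPKM in WT, 49.1 and 48.5 in KO, 29.98 in HET and 49.1 in MUT. The part of reads from the other strand in the Cars2 and Hars2 values was not tested.

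Both compartments can be set side by side for the 13 amino acids with 1 synthetase gene of the same letter in each. The cytosolic gene had the higher KO minus WT difference for 12 of the 13. The exception was methionine, where Mars was at -0.09 and Mars2 at 0.14, neither called. For tryptophan the pair was 1.63 and 0.08, and for serine 1.12 and -0.38. In MUT against HET the cytosolic gene was ahead for 11 of the 13, all but methionine and threonine. Levels in WT, which FPKM scale by length, were higher for the cytosolic gene in 11 of the 13, all but leucine and threonine. For threonine the mitochondrial value is that of the row shared with Ecm1, so the level and difference of Tars2 alone are not known. The values of Aars, Hars and Vars2 in these pairs also come from shared rows. The part of other RNA in the Lars2 level was not tested.

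**Figure D3:**
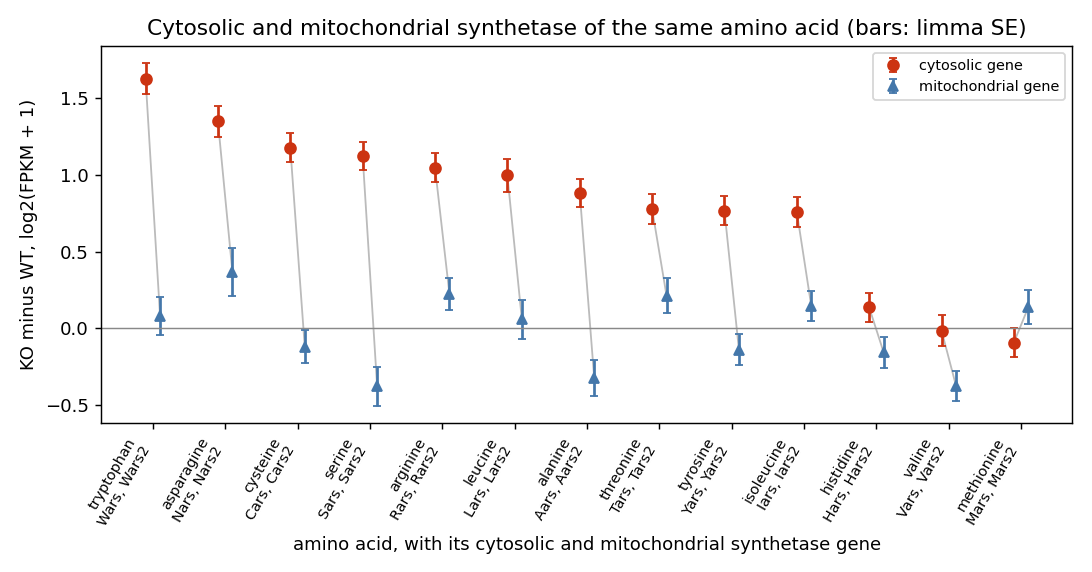
KO minus WT difference on the log2(FPKM + 1) scale for the cytosolic (circle) and mitochondrial (triangle) synthetase gene of each of 13 amino acids, with limma standard errors (n = 2 against 2). The cytosolic point is the higher one in 12 pairs, and the exception is methionine at the right. The points of Aars, Hars, Tars2 and Vars2 are those of rows shared with another gene.

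Summed over the 17 cytosolic genes on rows of their own, synthetase levels were 941 and 1021 FPKM in WT, 1668 and 1645 in KO, 1138 in HET and 1458 in MUT. The 13 mitochondrial genes on rows of their own, without Lars2, summed to 127 and 128 FPKM in WT, 131 and 137 in KO, 139.6 in HET and 122 in MUT. The first sum was higher in all 3 libraries with 4OHT than in all 3 with vehicle, and the second overlapped between them. Their ratio was 7.41 and 7.99 in WT, 12.7 and 12.04 in KO, 8.15 in HET and 11.9 in MUT. With Lars2 the 14 mitochondrial genes summed to 298 and 258 FPKM in WT, 287 and 291 in KO, 461 in HET and 296 in MUT, where HET stood apart.

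MUT against HET, which shares no library with KO against WT, sorted the cytosolic genes the same way. All 12 genes that rose in KO were higher in MUT than in HET, by 0.22 (Iars) to 1.26 (Wars), and all 8 others were lower, with differences of -0.53 (the Qars row) to -0.16. With 1 library per group there is no test. Past 1.5-fold lay 5 of the 20 (Aars, Nars, Rars, Sars and Wars), all higher, against 14.1% of all genes tested higher and 16.7% lower. Between the 2 WT libraries 58 of the 12266 genes were 1.5-fold higher in WT 2 and 45 lower, a spread that may be technical. At that limit 420 genes were higher and 718 lower in HET than in the WT mean. HET and WT both received vehicle but differ in alleles. Of the 16 mitochondrial genes 13 were lower in MUT than in HET, and past 1.5-fold lay the Tars2 row (higher) and Aars2, Lars2 and the Vars2 row (lower). Across the 36 genes the KO and MUT differences had a Pearson r of 0.91 and a Spearman rho of 0.88, a description over genes that share their libraries. Within compartments the Pearson r was 0.97 for the cytosolic and 0.71 for the mitochondrial genes. The same value over all genes tested is not given here, so these say nothing particular to synthetases.

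**Figure D4:**
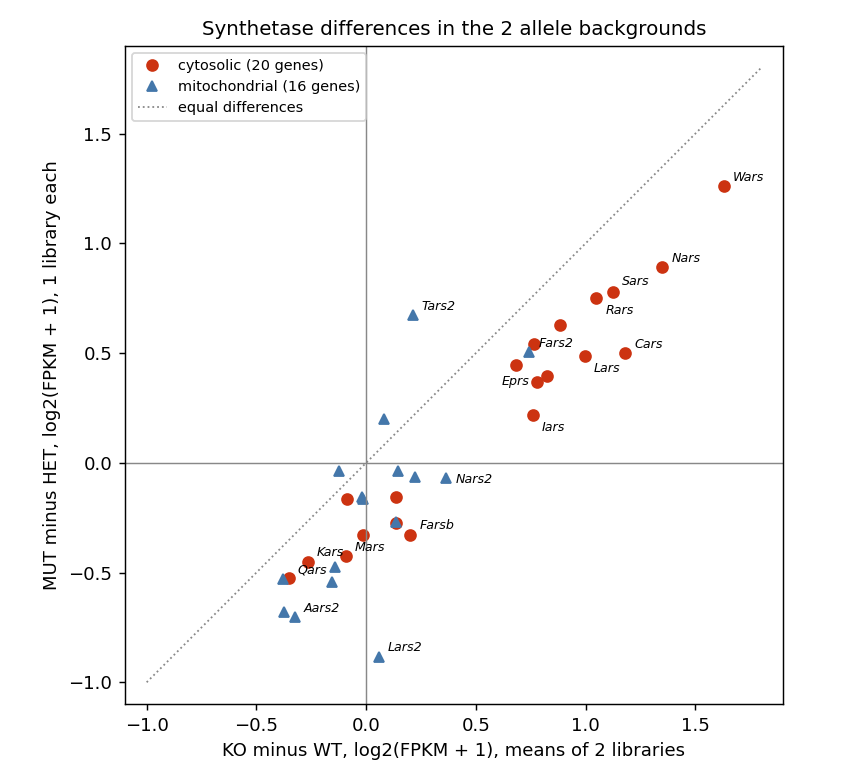
Difference of MUT from HET (1 library each) against that of KO from WT (means of 2 libraries) for the 36 synthetase genes, both on the log2(FPKM + 1) scale; the dotted line marks equal differences. The 12 cytosolic genes that rose in KO form a group at the upper right, all below the dotted line. Among the mitochondrial genes Fars2 lies with that group and Lars2 is the lowest point. Cars2, Wars2 and the Tars2 row, which is shared with Ecm1, lie above the line, the Tars2 row by the most.

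The MUT minus HET difference lay below the KO minus WT difference for every one of the 20 cytosolic genes, but that gap was called for 1 alone. The MUT effect minus the KO effect had a median of -0.34 over the cytosolic and -0.26 over the mitochondrial genes, beside -0.03 over all genes. The test of that difference passed for Cars and Lars2, 2 of 36, a share near the 4.01% of all genes tested. For Cars it was -0.68 ± 0.16 (limma adjusted p = 0.0484), and for Lars2 -0.94 ± 0.22 (limma adjusted p = 0.0421), both SE. Both calls were lost without WT 2 (adjusted p 0.104 and 0.119), and that for Cars also without WT 1 (0.148). The vehicle groups differed to begin with: HET lay above the WT mean for 19 of 20 cytosolic genes, with a median of 0.20, and for 13 of 16 mitochondrial genes, with a median of 0.14, beside 0.01 over all genes. Whether this belongs to the alleles or to the single HET library cannot be told apart.

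With all 6 libraries in 1 fit (4OHT against vehicle within allele background), 12 cytosolic genes rose and 2 fell, against 29.2% higher and 28.2% lower of all genes tested. This fit shares the WT and KO libraries with the comparison above. The largest synthetase difference was again that of Wars, 1.51 ± 0.11 (SE, limma adjusted p = 9.66e-06), and the cytosolic genes that fell were Kars (-0.33, limma adjusted p = 0.016) and the Qars row (-0.41, limma adjusted p = 0.00372). Of the mitochondrial genes 2 rose (Fars2 and the Tars2 row) and 4 fell (Aars2, Hars2, Sars2 and the Vars2 row). The 3 libraries with 4OHT and the 3 with vehicle did not overlap for 16 of 20 cytosolic genes, 12 higher and 4 lower, where 30.6% and 29.3% of all genes tested separated in these directions. In mitochondria 2 were higher and 6 lower in that sense. The calls of Hars2 and of the Tars2 row were lost without WT 2 (adjusted p 0.0954 and 0.0931), KO 1 (0.1 and 0.12), HET (0.205 and 0.139) or MUT (0.203 and 0.139), and that of Kars without WT 2 (0.0623).

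Other genes of tRNA charging and of translation were mostly not called; their counts are read against the 29.5% higher and 28.2% lower among all genes tested. The scaffold proteins of the multisynthetase complex, Aimp1, Aimp2 and Eef1e1, had differences of 0.17, 0.04 and 0.22, none called. Aimp1, for example, had 66.2 and 66.3 FPKM in WT, 75.6 and 74.00 in KO, 71.8 in HET and 78.4 in MUT. Of 5 cytosolic elongation factor genes, among them Eef1a1, whose protein brings charged tRNA to the ribosome, Eef1d fell and the other 4 were not called. The Eef1d difference was -0.36 ± 0.09 (SE, n = 2 against 2, limma adjusted p = 0.00737). Of 9 mitochondrial translation factors 3 rose (Tsfm, Mtrf1l and Mrrf), close to the share over all genes, and none fell. Mrrf, the mitochondrial ribosome recycling factor, had the largest difference of these, 0.66 ± 0.10 (SE, n = 2 against 2, limma adjusted p = 2.36e-04).

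Among 11 genes of tRNA maturation and export 3 rose, 2 fell and 6 were not called, counts near or below the shares over all genes. Xpot, which exports tRNA from the nucleus, had 30.3 and 31.6 FPKM in WT, 47.2 and 50.5 in KO, 33.9 in HET and 43.1 in MUT, a difference of 0.64 ± 0.10 (SE, n = 2 against 2, limma adjusted p = 2.33e-04). Elac2, which trims the 3′ end of tRNA precursors, had 15.7 and 16.1 FPKM in WT, 9.91 and 8.91 in KO, 16.9 in HET and 9.73 in MUT, a difference of -0.70 ± 0.10 (SE, n = 2 against 2, limma adjusted p = 1.95e-04). Xpot was thus higher, and Elac2 lower, in every 4OHT library than in any vehicle library. Of 6 genes of editing, selenocysteine and the paralog Tarsl2, Pstk rose and Aarsd1 and Dtd1 fell. Of 4 genes of the mitochondrial amidotransferase and of formylation Gatc alone rose. These small counts stand beside 29.5% higher and 28.2% lower among all genes tested, and nothing is read from them.

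In the list of eIF2 alpha kinases and stress response genes 7 of 12 rose and 1 fell, against 29.5% higher and 28.2% lower among all genes tested. The one that fell was Eif2ak3, the kinase PERK of the endoplasmic reticulum, with a difference of -0.97 ± 0.10 (SE, n = 2 against 2, limma adjusted p = 2.40e-05). The row of the kinase gene Eif2ak2, which also names Sult6b1, rose by 0.44 ± 0.10 (SE, n = 2 against 2, limma adjusted p = 0.00328). The kinase genes Eif2ak1 and Eif2ak4 were not called. Ddit3, the stress factor CHOP, had 54.5 and 52.02 FPKM in WT, 761 and 743 in KO, 38.4 in HET and 484 in MUT, a difference of 3.79 ± 0.09 (SE, n = 2 against 2, limma adjusted p = 2.69e-09). Trib3, a pseudokinase induced by the same pathway, had 12.1 and 11.9 FPKM in WT, 92.7 and 93.5 in KO, 14.4 in HET and 75.9 in MUT, a difference of 2.86 ± 0.09 (SE, n = 2 against 2, limma adjusted p = 8.91e-09). Both stood far clear of their vehicle libraries. Ppp1r15a, whose protein is a regulatory subunit of a phosphatase of eIF2 alpha, differed by 1.84 ± 0.11 (SE, n = 2 against 2, limma adjusted p = 4.48e-07). Atf4 itself, described here after its values were seen, had 122 and 121 FPKM in WT, 199.7 and 171 in KO, 151 in HET and 178 in MUT, a difference of 0.60 ± 0.10 (SE, n = 2 against 2, limma adjusted p = 6.58e-04), below that of each of the 12 synthetase genes that rose. The share of the synthetase rises that goes with these genes was not tested.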

How the data were processed

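The 6 libraries were grouped by their titles. The deposited values are FPKM per gene row with decimal commas, per the file headers, and in the authors' files they are the unit analysed throughout. Cufflinks 2.2.1, TopHat2 2.1.1 and Bowtie2 2.3.0 are named, with the builds mm10 and GRCm38, per the submitters' processing notes. How libraries were scaled, which annotation was used and whether strand was read is not given in the sources used here. Rows without a gene name (1021 of 24879, 8.26% to 14.2% of FPKM) were left out, and of several rows for 1 name the highest was kept.

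Values were analysed as log2(FPKM + 1), which understates changes of low genes, in R 4.3.3 with limma 3.58.1 (lmFit and trended eBayes, two-sided tests, Benjamini-Hochberg adjustment over all tested genes, threshold 0.05). Genes with FPKM of at least 1 in at least 2 libraries (12266) were tested. For KO against WT the fit held 4 libraries. The contrast of the MUT effect with the KO effect came from a fit of 4 groups to 6 libraries, and 4OHT against vehicle from one with allele background as a term. MUT against HET had no test. The script was tested on simulated data. The members, gene lists and motifs were chosen with earlier results of these data known, so counts over them are descriptions. Values in each library were printed for every synthetase, and of other lists at most the 3 members of smallest p, apart from genes named to complete a count and examples (Atf4 and Aimp1 among them) chosen after their values were seen. Positions come from GENCODE M 21 on GRCm38.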

Additional observations from a re-analysis of the deposited data

Results flagged for a closer look

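Cars and Lars2 had effects that differed between the Fl/Fl and Fl/E861A backgrounds by limma's test over 6 libraries, 2 of 36 genes where 4.01% of all genes tested passed. The MUT effect minus the KO effect was -0.68 for Cars and -0.94 for Lars2 on the log2 scale, with limma adjusted p of 0.0484 and 0.0421. Both rest on the single HET and MUT libraries, and their spread was taken from the WT and KO pairs. Across the other settings tried, the adjusted p ran from 0.00975 to 0.148 for Cars and from 6.57e-06 to 0.272 for Lars2. HET lay above both WT libraries in each case, at 37.2 FPKM for Cars and 322 for Lars2. The part of reads of other genes or of ribosomal RNA in the Lars2 value was not tested.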

How the results depend on the processing

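In KO against WT the 12 cytosolic rises and that of Fars2 held in all 12 settings tried, with adjusted p of 0.0175 or less. The falls were less firm: 1 cytosolic fall was called with no filter on low values and 1 with no variance trend, and 1 mitochondrial fall with no filter. With quantile normalization 2 mitochondrial genes rose, and the medians were 0.67 (cytosolic) and 0.10 (mitochondrial). Rescaling to named rows gave a cytosolic median of 0.72. WT and KO share replicate numbers, but the labels do not say what these mark. Deviations of same-numbered libraries correlated at 0.183 over 12266 genes, and with a replicate block 4 mitochondrial genes rose (Fars2, Nars2, Rars2 and the Tars2 row), as did Farsb (adjusted p 0.0406), while 4122 genes were higher and 3837 lower in all. Where 1 library was left out, the lone library of its group was assumed to vary like the other groups. This gave 0 to 2 cytosolic falls, a cytosolic median of 0.68 to 0.81, 1 to 3 mitochondrial rises and 0 to 3 mitochondrial falls.

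In 4OHT against vehicle, quantile normalization gave medians of 0.54 (cytosolic) and 0.068 (mitochondrial). With it, with no filter and with rescaling to named rows, 1 mitochondrial gene rose each time. Leaving out 1 library gave 1 to 2 cytosolic falls, 1 to 2 mitochondrial rises, a cytosolic median of 0.54 to 0.76 and a mitochondrial median of -0.085 to 0.021.

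For the MUT effect minus the KO effect, the cytosolic call (Cars) was 0 with a pseudocount of 0.1, no filter, rescaling to named rows or no variance trend. The mitochondrial call (Lars2) was 0 with a pseudocount of 0.1, no filter, quantile normalization or no variance trend. With no filter, limma called 0 genes in all, higher or lower, where 2814 had an unadjusted p under 0.05, and quantile normalization called 187 lower. Leaving out 1 library gave 206 to 742 genes higher and 80 to 450 lower in all, 0 to 1 cytosolic lower, 0 to 1 mitochondrial higher (the Tars2 row without KO 1) and 0 to 1 mitochondrial lower. The cause of these shifts was not tested. Depth is only an estimate, and members near 2 to 3 FPKM (Ears2, Nars2, Wars2 and Pars2) are the least precise.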
